A study of Mus musculus with 4 samples.

Results

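Neutrophils of the newborn mouse kidney were selected on their counts of the calprotectin genes. They were the barcodes with at least 5 UMIs (unique molecular identifiers, 1 for each captured transcript) of S100a8 and at least 5 of S100a9, at most 1 UMI of the complement genes C1qa, C1qb and C1qc together, and under 5 UMIs of the collagen gene Col3a1. The rule was applied to kept barcodes, which had a minimum of 1000 UMIs and 500 genes and a mitochondrial share under 15%. It found 304 neutrophils among 36833 kept barcodes. The floxed library held 175 of 15645 kept barcodes and the control library 129 of 21188.

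Single-cell suspensions of whole kidneys, from which debris and dead cells had been removed, were sequenced in droplets with a 3′ kit. The floxed library is labelled as kidney of the newborn Six2CreTet2/3f/f genotype, in which Six2Cre is combined with floxed Tet2 and Tet3. The control library is labelled as newborn Six2Cre kidney, so both groups share the recombinase. How many animals each library holds, and their sex, are not given in the labels used here. Each genotype had 1 library, so genotype, animal, litter and library preparation cannot be told apart, no test across animals was possible, and every interval below is a 95% interval for counting error only. Six2Cre is active in Six2-positive nephron progenitors, the cells that form the nephron epithelium. Neutrophils arise from haematopoietic precursors outside that lineage. Because reads come from 3′ ends, a Tet2 or Tet3 transcript can be counted whether or not the floxed part was deleted, so the levels say nothing of the genotype. In neutrophils Tet2 had 44 floxed and 29 control UMIs (66.3 and 64.6 CPM, the summed UMIs of a gene scaled to a common total per library) and Tet3 had 27 and 21 (40.7 and 46.8 CPM).

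Neutrophils are short-lived granulocytes that leave the bone marrow or fetal liver for the blood and enter tissue in response to chemoattractants. As they mature they make their granule proteins in waves: proteases of azurophil granules first, then lactoferrin, cathelicidin and other proteins of specific granules, then gelatinase, while mature cells express the chemokine receptor Cxcr2 and cytokine genes. S100a8 and S100a9 encode the subunits of calprotectin, a calcium- and zinc-binding protein that is among the most abundant in the neutrophil cytosol.

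The promoters of the pair of genes that define these cells, and of the 3 specific granule genes that split them into ranges, are given as the 250 bases before the annotated start, 5′ to 3′ on the strand of the gene, from RefSeq on GRCm38.p6. Capitals mark matches on either strand to TTGNGNAA, a motif of the C/EBP factors that act in granulopoiesis.
S100a8 promoter, chr3:90668821-90669070, plus strand: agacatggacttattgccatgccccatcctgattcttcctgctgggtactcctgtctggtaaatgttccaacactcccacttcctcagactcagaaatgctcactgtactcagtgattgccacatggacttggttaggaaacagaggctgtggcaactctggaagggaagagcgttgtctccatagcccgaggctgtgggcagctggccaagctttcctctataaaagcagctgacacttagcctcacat
S100a9 promoter, chr3:90695722-90695971, minus strand: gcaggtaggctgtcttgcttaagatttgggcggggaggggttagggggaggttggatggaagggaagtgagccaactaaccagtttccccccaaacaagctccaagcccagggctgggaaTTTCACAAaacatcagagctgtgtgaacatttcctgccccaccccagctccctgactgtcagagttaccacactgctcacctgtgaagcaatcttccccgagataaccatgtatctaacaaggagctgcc
Camp promoter, chr9:109849457-109849706, minus strand: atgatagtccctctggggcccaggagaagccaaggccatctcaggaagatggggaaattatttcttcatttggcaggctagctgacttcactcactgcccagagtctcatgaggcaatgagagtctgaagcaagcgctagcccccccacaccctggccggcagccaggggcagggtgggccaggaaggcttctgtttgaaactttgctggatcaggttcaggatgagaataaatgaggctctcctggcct
Ngp promoter, chr9:110419558-110419807, plus strand: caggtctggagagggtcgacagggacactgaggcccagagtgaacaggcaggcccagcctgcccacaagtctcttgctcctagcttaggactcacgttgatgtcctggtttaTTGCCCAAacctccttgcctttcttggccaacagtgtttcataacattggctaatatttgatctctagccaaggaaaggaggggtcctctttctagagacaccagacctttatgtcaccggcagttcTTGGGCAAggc
Ltf promoter, chr9:111019042-111019291, plus strand: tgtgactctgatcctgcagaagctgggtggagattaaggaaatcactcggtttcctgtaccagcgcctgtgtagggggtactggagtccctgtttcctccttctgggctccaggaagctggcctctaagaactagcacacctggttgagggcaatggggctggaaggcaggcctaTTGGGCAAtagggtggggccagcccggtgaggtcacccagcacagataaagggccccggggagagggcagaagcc
The motif occurred in 11.7% of 32851 RefSeq promoter windows of this length. Ngp held 2 matches, which begin 138 and 11 bases before the start, S100a9 held 1 at 130 bases and Ltf 1 at 75 bases. No match lay in the windows of S100a8 and Camp. S100a8 and S100a9 lie close together on chromosome 3, at 90669071 to 90670034 and 90692630 to 90695721. Camp (109847377 to 109849456), Ngp (110419808 to 110423012) and Ltf (111019292 to 111042766) all lie on chromosome 9.

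S100a8 and S100a9 chose the cells, so their counts are given as a description only. In floxed neutrophils S100a8 had a lowest, median and highest count of 5, 64 and 574 UMIs per cell, and in control neutrophils 6, 84 and 742. S100a9 had 5, 102 and 894 UMIs in floxed cells and 5, 94 and 902 in control cells. The ranges of the 2 libraries overlapped almost entirely. Together the 2 genes supplied 7.03% of all UMIs of the floxed neutrophils and 8.73% of those of the control neutrophils. Among the other kept barcodes, 9.11% of floxed and 8.64% of control barcodes also had an S100a8 UMI, so single UMIs of it occur throughout both libraries. Of the kept barcodes with at least 5 UMIs of both genes, the Col3a1 limit removed 17 floxed and 16 control barcodes, and the C1q limit 0 floxed and 4 control ones. Just inside the threshold, with 5 to 9 UMIs of the lower gene, lay 5 floxed and 3 control barcodes. Just outside, with 2 to 4 and the other limits met, lay 4 floxed and 6 control barcodes.

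**Figure D1:**
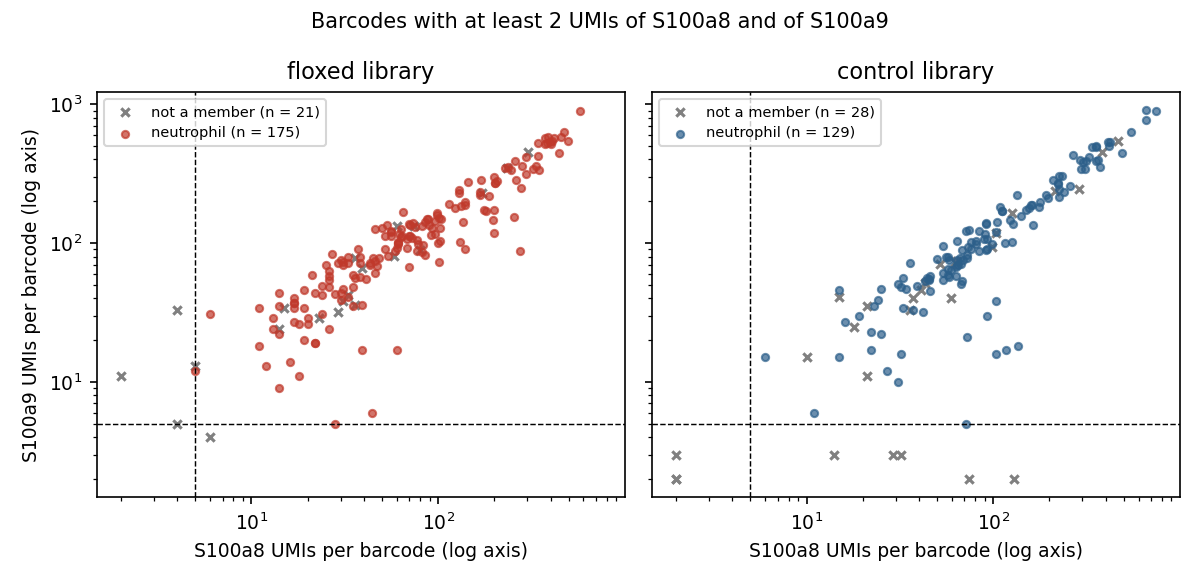
S100a8 UMIs (x axis) and S100a9 UMIs (y axis, both log axes) of each kept barcode with at least 2 UMIs of both genes, in the floxed library (left) and the control library (right). Coloured points are neutrophils (175 and 129), grey crosses failed a limit of the rule, and dashed lines mark 5 UMIs. In most barcodes the 2 genes rise together, but some barcodes have far more S100a8 than S100a9. Among these are control neutrophils with 136 and 18 or 117 and 17 UMIs, and a floxed neutrophil with 44 and 6.

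Neutrophils made up 1.12% of floxed kept barcodes (0.960 to 1.30, Clopper-Pearson) and 0.609% of control kept barcodes (0.509 to 0.723). The floxed share was 1.84 times the control share (1.46 to 2.33). It remained higher in the floxed library under every other selection tried, at 1.53 to 2.21 times.

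The median neutrophil was shallow. It had 2141 UMIs and 872 genes in the floxed library and 2464 UMIs and 992 genes in the control library. The medians for all kept barcodes were 4898 and 6213 UMIs. Single neutrophils were far deeper, with up to 31788 floxed and 20968 control UMIs. From 10000 UMIs upwards there were 11 floxed and 7 control neutrophils, which weigh more in every pooled CPM and ratio. The deepest floxed one had 44 S100a8, 6 S100a9 and 100 stromal, endothelial or nephron marker UMIs. In total the neutrophils gave 664009 floxed and 449033 control UMIs. The matrices held 22543 floxed barcodes with 115427704 UMIs and 25736 control barcodes with 197745868 UMIs, more barcodes than the 10000 cells loaded for each library. The libraries shared 99 kept barcode sequences and no neutrophil barcode.

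The label was checked on genes that the rule did not use. At least 1 UMI of Csf3r, Cxcr2, Retnlg, Il1r2, Mmp9, Ltf, Camp, Ngp or Lcn2 was found in 171 of 175 floxed and 127 of 129 control neutrophils. Nephron progenitors (Six2 or Cited1 at 2 UMIs or more), which should lack these genes, had such a UMI in 9.45% of floxed and 8.87% of control barcodes, at median depths of 8558 and 11127 UMIs. With every cell thinned to 1000 UMIs, a random draw that gives all cells the same depth, such a UMI was found in 91.4% of floxed and 95.3% of control neutrophils, and in 0.727% and 0.507% of progenitors. Retnlg, which encodes a resistin-like protein of granulocytes, stood at 5815 CPM in floxed neutrophils and 4.23 CPM in the other floxed barcodes, and at 6432 and 2.93 CPM in the control library. Csf3r, the receptor for granulocyte colony-stimulating factor, stood at 206 CPM (137 UMIs in 80 cells) in floxed and 176 CPM (79 UMIs in 61 cells) in control neutrophils. Ly6g, the surface antigen used to sort mouse neutrophils, was sparse, with 51 UMIs in 28 floxed cells and 34 UMIs in 23 control cells.

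Of 1065 genes at 100 CPM or more in both libraries, 129 were at least 4-fold higher in neutrophils in both (12.1%), and these included 16 of the 18 listed identity genes and 9 of the 10 listed specific granule genes. Macrophages were taken as kept barcodes with at least 5 UMIs of the C1q genes and under 5 UMIs each of S100a8, S100a9 and Col3a1. Over macrophages, 75 genes were at least 4-fold higher in both libraries (7.04%), including 15 of the identity genes and 9 of the specific granule genes. The comparison is made from the cells that the rule split, so it describes them and tests nothing. Among the 20 genes with the highest ratio, Stfa1, Stfa2, Stfa2l1 and Stfa3 encode stefins, inhibitors of cysteine proteases. Ngp and Camp encode granule proteins, Slpi and Wfdc21 belong to the whey acidic protein family, and Mmp8 and Mmp9 encode collagenase and gelatinase. Stfa1 was found in all 175 floxed and all 129 control neutrophils, at 13885 and 21854 CPM, against 13.5 and 13.5 CPM in the other floxed and control barcodes. The stefin genes are near-identical neighbours on chromosome 16, so how reads were shared among them is uncertain. Summed over the 4 Stfa genes, neutrophils had 21833 CPM in the floxed library and 34191 CPM in the control library.

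Markers of lymphocytes, eosinophils, basophils and mast cells were close to nil. Of the listed markers, 8 of 11 for T and NK cells, 6 of 8 for B cells, 4 of 8 for eosinophils and 5 of 9 for basophils and mast cells had no UMI in any neutrophil. That includes Cd3e, Cd79a, Epx and Mcpt8. Monocyte markers summed to 1607 CPM in floxed and 1107 CPM in control neutrophils, with 8 of the 9 at 25 CPM or more, and erythroid markers to 25792 and 2650 CPM. Macrophage markers summed to 539 CPM in floxed and 296 CPM in control neutrophils, with Mrc1 and Ms4a7 at 0. The C1q and Col3a1 limits of the rule hold down macrophage and stromal marker counts, so these are a description only. RNA of kidney cells was present: nephron epithelium markers summed to 1863 and 1136 CPM, endothelial markers to 136 and 619 CPM. At least 5 UMIs of stromal, endothelial or nephron markers were found in 48 floxed and 51 control neutrophils, whose median depths were 5218 and 3330 UMIs against 1737 and 2074 in the rest of each library.

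Neutrophils differed widely from each other in their granule transcripts. Camp (cathelicidin), Ngp (neutrophilic granule protein) and Ltf (lactoferrin, which binds iron) were either abundant in a cell or nearly absent. Their summed count was 0 in 135 floxed and 82 control neutrophils and 20 or more in 29 and 26, with 2 floxed and 3 control cells at 5 to 9 UMIs and 0 and 3 at 10 to 19. A range of cells with at least 10 summed UMIs, called granule-high here, held 29 floxed neutrophils (16.6%, 11.4 to 22.9) and 29 control neutrophils (22.5%, 15.6 to 30.7). The 2 intervals overlap. A second range with at least 3 UMIs of the azurophil granule list held 10 floxed (5.71%, 2.77 to 10.3) and 2 control cells (1.55%, 0.188 to 5.49). The rest, called granule-low, numbered 136 floxed (77.7%) and 98 control (76.0%). The limits of these ranges were set after the values were seen, and the ranges are not cell types.

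**Figure D2:**
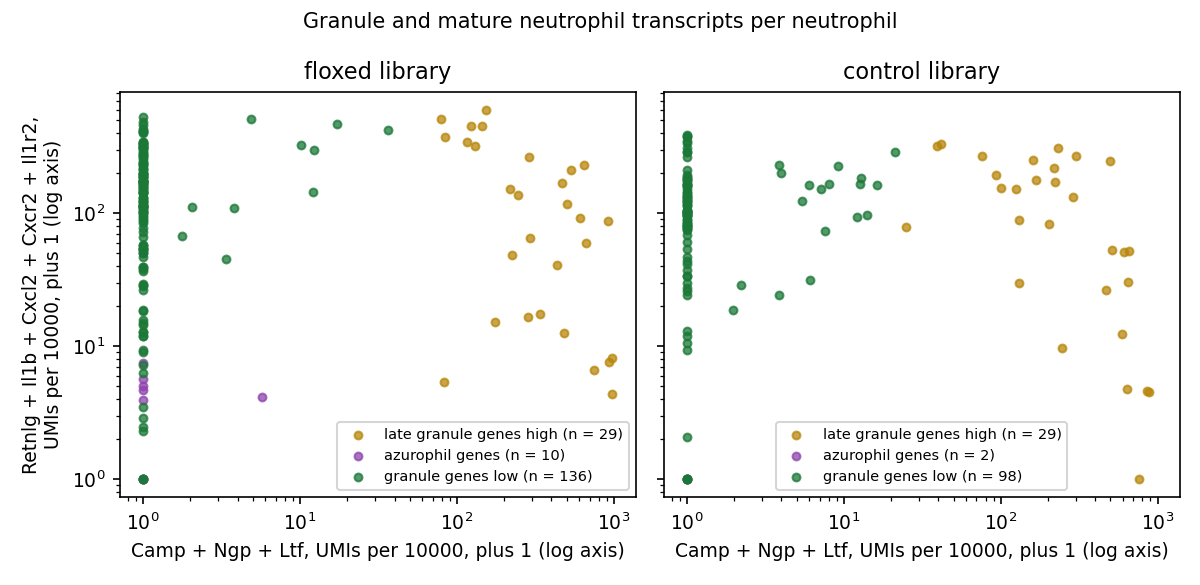
Summed Camp, Ngp and Ltf UMIs per 10000 (x axis) against summed Retnlg, Il1b, Cxcl2, Cxcr2 and Il1r2 UMIs per 10000 (y axis), each plus 1 on a log axis, for every neutrophil of the floxed library (left) and the control library (right). Most cells stand at the left edge with no UMI of Camp, Ngp or Ltf, and the granule-high cells (29 in each library) spread over the right.

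Granule-high cells carried the specific granule programme at very high levels in both libraries. Camp, Ngp and Ltf set this range, so their own levels in it are a description only. Ngp stood at 17707 CPM in floxed and 19904 CPM in control granule-high cells, against 52.1 and 81.1 CPM in granule-low cells. Camp stood at 13288 and 12071 CPM, against 4.53 and 48.6 CPM, the control granule-low value coming from 15 UMIs in 11 cells. Lcn2, lipocalin 2, which withholds iron from bacteria by binding siderophores, was less restricted: it stood at 13590 and 10167 CPM in granule-high cells and at 1022 and 904.5 CPM in granule-low cells. Calprotectin transcripts, on which all the cells were chosen, took 14.1% of floxed and 18.9% of control UMIs here, against 4.56% and 5.20% in granule-low cells, which is again a description only. Cebpe, the factor required for specific granules in mice, followed the same order, with 121 and 223 CPM in granule-high cells and 20.4 and 38.9 CPM in granule-low cells. Anxa1 (annexin A1, an anti-inflammatory protein) also did, with 1837 and 2696 CPM against 304 and 489.5 CPM.

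Taken as a pooled set, granule-low cells had the chemokine, cytokine and receptor transcripts of mature neutrophils, but single cells varied widely. Their summed Retnlg, Il1b, Cxcl2, Cxcr2 and Il1r2 count ran from 0 to 145 UMIs in floxed cells (median 26.5). In control cells it ran from 0 to 88 (median 24). The range is the remainder after the other ranges were set, so not every cell in it had these transcripts. Il1b, the inflammatory cytokine interleukin 1 beta, stood at 1278 CPM in floxed and 1527 CPM in control granule-low cells, against 6.71 CPM (1 UMI) and 190 CPM (23 UMIs in 4 cells) in granule-high cells. Cxcl2, a chemokine that attracts neutrophils, stood at 2646 and 1527 CPM, against 288 and 437 CPM. Cxcr2, its receptor, stood at 344 and 169 CPM, against 73.8 and 66.0 CPM. Ccl6, a chemokine of myeloid cells, stood at 360 and 421 CPM, against 20.1 and 49.5 CPM. Retnlg did not follow this split: it stood at 5344 and 5433 CPM in granule-low cells and at 10064 and 9993 CPM in granule-high cells. The gelatinase gene Mmp9 and the collagenase gene Mmp8 were found in granule-low and granule-high cells alike. Mmp8 stood at 641 and 684 CPM in granule-low and 1066 and 1212 CPM in granule-high cells, and Mmp9 at 254 and 266 CPM against 496 and 668 CPM. Depth moved with these ranges, at medians of 1766 floxed and 2074 control UMIs in granule-low cells and 3625 and 3510 in granule-high cells, and its part in them was not tested.

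**Figure D3:**
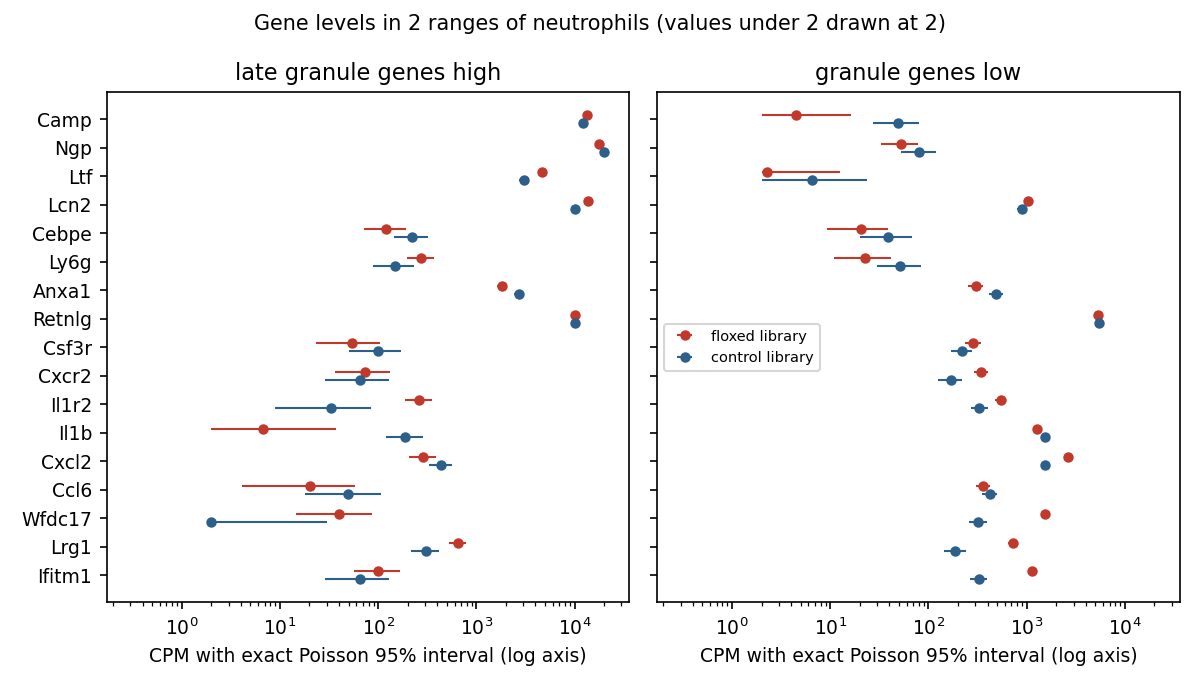
CPM of 17 genes (log axis, with exact Poisson 95% intervals) in granule-high neutrophils (left) and granule-low neutrophils (right). Within each panel the floxed library is drawn above the control library. Camp, Ngp and Ltf fall away in the granule-low panel while Cxcr2, Il1b and Cxcl2 stand higher there, and Wfdc17, Lrg1 and Ifitm1 are separated by library among granule-low cells.

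The 12 cells of the azurophil range went against the neutrophil label in part, by their monocyte markers and by Retnlg and Cxcr2. Azurophil granule genes set this range, so the levels of these genes in it are a description only. Prtn3 (proteinase 3) stood at 708 CPM in the 10 floxed and 3007 CPM in the 2 control cells, and Elane (neutrophil elastase) at 436 and 778 CPM. Both proteases mark early granulocyte and monocyte precursors. Monocyte markers summed to 6575 CPM in the floxed and 5340 CPM in the control cells, against 1101 and 998.5 CPM in granule-low cells, and Ly6c2 stood at 1892 and 2281 CPM. Retnlg had 1 UMI in the floxed cells and 0 in the control cells, Cxcr2 and Ngp had 0 in both, and Lcn2 had 201 and 1 UMIs. Other neutrophil genes were present: Stfa1 was found in 10 floxed and 2 control cells (13884 and 6532 CPM), and Mmp8 in 8 and 0. The identity list summed to 10509 CPM in the floxed but 1607 CPM in the control cells, so the 2 libraries differed here. In granule-low cells it summed to 28152 and 32341 CPM. The cells were deep, at medians of 7500 and 9645 UMIs, and their proliferation genes summed to 12401 and 9902 CPM, against 3817 and 3407 CPM in granule-low cells.

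Thinning every neutrophil to 1000 UMIs gave shares of cells that can be compared across depth. Camp was found in 28 of 175 floxed and 29 of 129 control neutrophils, and Ngp in 18.3% and 24.8%, with overlapping intervals. Unthinned, Camp was found in 17.1% and 31.0%, and Ngp in 21.1% and 31.8%. Retnlg was found in 72.0% and 74.4% after thinning (76.6% and 82.9% unthinned). Cxcr2 was found in 38.3% of floxed (31.1 to 45.9) and 15.5% of control cells (9.74 to 22.9), 53.1% and 33.3% unthinned. At 2000 UMIs, which 93 floxed and 82 control cells reached, Cxcr2 was found in 32.3% and 24.4%, Retnlg in 63.4% and 87.8%, Camp in 30.1% and 36.6%, and Ngp in 32.3% and 46.3%. The gap for Cxcr2 was thus smaller and that for Retnlg larger in the deeper cells. In nephron progenitor barcodes these 4 genes were found in at most 0.312% after thinning to 1000 UMIs.

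Differences between the libraries were read against a size rule, which asks for 100 CPM or more in whichever library is higher and for a ratio whose whole interval lies beyond 1.5-fold. By that rule 32 of 1384 genes (2.31%) were higher and 23 (1.66%) lower in floxed neutrophils, 55 in all (3.97%). Over 5247 genes at 25 CPM or more in either library the median log2 ratio was 0.05. Of the 10 specific granule genes 0 were higher and 1 was lower, with a median log2 ratio of -0.09 over 9 genes at 25 CPM. Camp stood at 2992 CPM in floxed and 3294 CPM in control neutrophils, a ratio of 0.908 (0.849 to 0.972). Ltf stood at 1041 and 826 CPM, a ratio of 1.26 (1.11 to 1.43), and Lcn2 at 4035 and 3369 CPM, a ratio of 1.20 (1.12 to 1.28). The 1 lower gene was Chil3, a chitinase-like protein, at 294 CPM in 27 floxed cells and 559 CPM in 24 control cells, a ratio of 0.525 (0.434 to 0.636). Chil3 was past the rule in 10 of 18 alternative selections and scalings, with ratios of 0.0562 (granule-low cells, 7 floxed and 87 control UMIs) to 0.870 (a minimum of 20 UMIs of S100a8 and S100a9).

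Of the 15 highest named ratios, 5 belonged to genes at least 4 times as high in floxed neutrophils as in the other floxed barcodes, and Wfdc17 had the largest of these 5. It encodes a small secreted protein with a whey acidic protein domain. Floxed neutrophils had 731 UMIs in 123 cells (1101 CPM) and control neutrophils 102 UMIs in 39 cells (227 CPM), a ratio of 4.85 (3.94 to 6.02). After thinning it was found in 54.9% of floxed (47.2 to 62.4) and 20.2% of control neutrophils (13.6 to 28.1), 70.3% and 30.2% unthinned, and in 0.208% and 0.152% of progenitors. Its level was highest in granule-low cells, at 1534 CPM (108 of 136 cells) in the floxed and 321 CPM (37 of 98 cells) in the control library. In the azurophil range it stood at 653 CPM (10 floxed cells) and 155.5 CPM (2 control cells), and in granule-high cells at 40.2 and 0 CPM. In macrophages the ratio was 1.42 (1.23 to 1.63). The neutrophil ratio of Wfdc17 was 3.42 times the macrophage ratio (2.66 to 4.43). Its neighbour on chromosome 11, Wfdc21, stood at 1274 and 1443 CPM in neutrophils, a ratio of 0.883 (0.796 to 0.980).

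Lrg1 and Ifitm1 were also higher in floxed neutrophils. Lrg1 encodes a secreted leucine-rich glycoprotein that neutrophils store in granules. It had 428 UMIs in 139 floxed cells (645 CPM) and 95 UMIs in 54 control cells (212 CPM), a ratio of 3.05 (2.43 to 3.85). In granule-low cells Lrg1 stood at 730 and 188 CPM, a ratio of 3.88 (2.93 to 5.22), and in granule-high cells at 650 and 305 CPM, a ratio of 2.13 whose interval of 1.45 to 3.20 reaches below 1.5. Over all other kept barcodes its ratio was 1.39 (1.09 to 1.76), so the neutrophil ratio was 2.19 times as large (1.58 to 3.07). Ifitm1 encodes a membrane protein that restricts the entry of viruses. It had 535 UMIs in 109 floxed cells (806 CPM) and 109 UMIs in 53 control cells (243 CPM), a ratio of 3.32 (2.70 to 4.12), 2.29 times the macrophage ratio (1.66 to 3.18). Its neighbours on chromosome 7 did not share this size, with Ifitm2 at 1614 and 1165 CPM (1.39, 1.25 to 1.54) and Ifitm3 at 694 and 915 CPM (0.758, 0.663 to 0.869). Lrg1 was found in 56.0% of thinned floxed and 16.3% of thinned control neutrophils, 79.4% and 41.9% unthinned. Ifitm1 was found in 48.0% and 21.7% after thinning, 62.3% and 41.1% unthinned, and in 9.24% and 6.39% of thinned progenitors. At 2000 UMIs the floxed and control shares were 54.8% and 24.4% for Wfdc17, 59.1% and 29.3% for Lrg1, and 44.1% and 28.0% for Ifitm1. Wfdc17, Lrg1 and Ifitm1 were past the size rule in the same direction under each of the 18 alternatives, including granule-low cells alone and members with under 5 UMIs of other lineages.

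**Figure D4:**
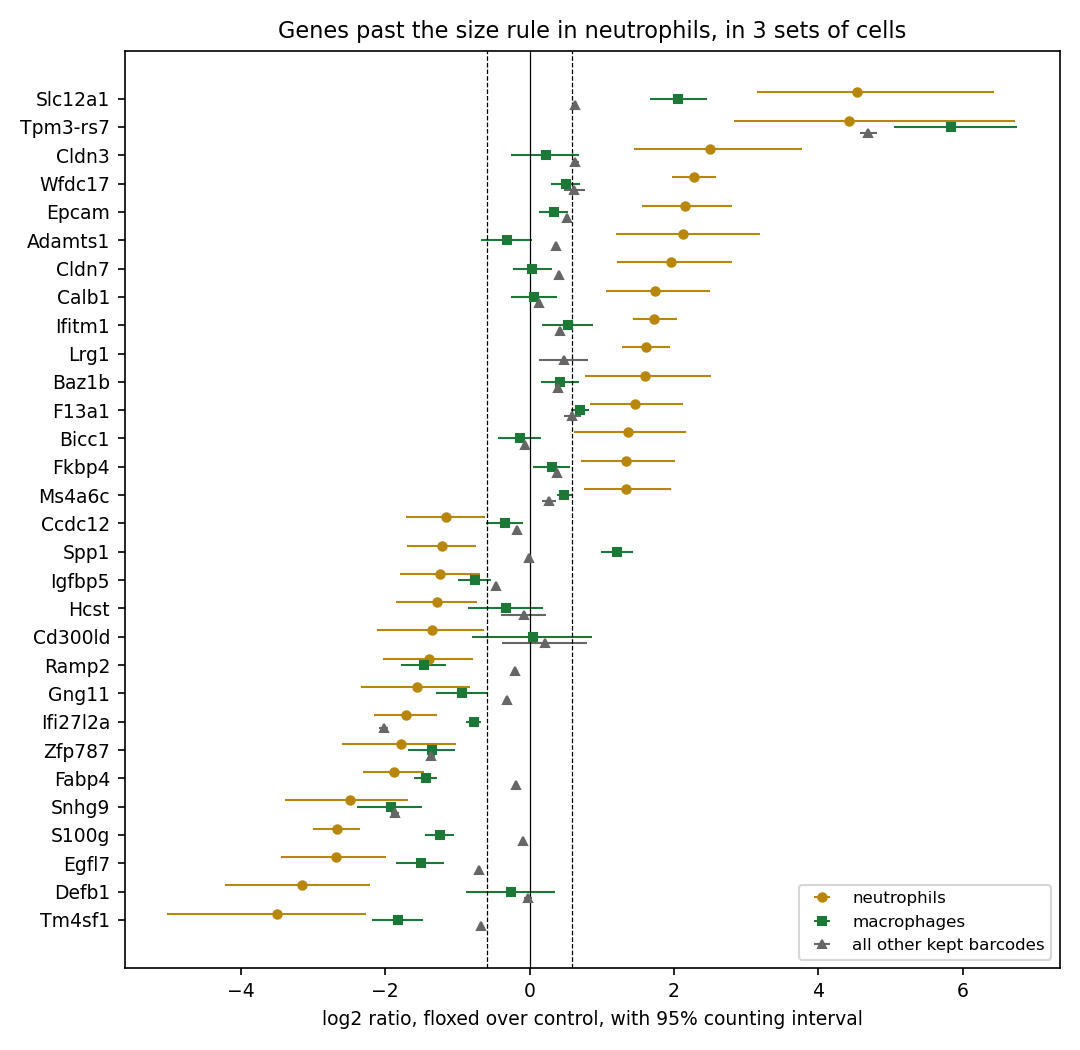
Log2 ratio of the floxed over the control library (x axis, with 95% counting intervals) for the 15 highest and 15 lowest named genes past the size rule in neutrophils, drawn for neutrophils, for macrophages and for all other kept barcodes. Dashed lines mark 1.5-fold. Wfdc17 and Ifitm1 lie further right in neutrophils than in both other sets. Lrg1 lies further right in neutrophils than in all other kept barcodes and has no macrophage point. Tpm3-rs7, Snhg9 and Zfp787 lie beyond 1.5-fold on the same side in all 3 sets. A point with no UMI in 1 of the libraries is not drawn.

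Receptor and identity genes past the size rule are counted here against the 3.97% of all genes tested. Of the 18 identity genes 2 were higher in floxed neutrophils, Wfdc17 and Il1r2, and 1 was lower, Stfa2l1, with a median log2 ratio of -0.16. Il1r2, a decoy receptor that binds interleukin 1 without signalling, stood at 462 CPM in 122 floxed cells and 236 CPM in 64 control cells, a ratio of 1.96 (1.57 to 2.47). Il1r2 was past the rule in 16 of 18 alternatives and Stfa2l1 in 8. Among adhesion and homing receptors 0 of 12 were past the rule, with a median of -0.23. Itgam, which encodes the integrin chain CD11b, stood at 122 and 207 CPM, a ratio of 0.589 (0.432 to 0.802). Cxcr2 stood at 246 CPM (163 UMIs) and 134 CPM (60 UMIs), a ratio of 1.84 whose interval of 1.36 to 2.51 reaches below 1.5. Of 12 chemoattractant and pattern receptors 0 were past the rule (median -0.01), with the leukotriene receptor gene Ltb4r1 at 211 and 176 CPM. Of 12 Fc and inhibitory receptors 1 was lower (median -0.03): Cd300ld, a myeloid surface receptor, at 39.2 and 100 CPM, a ratio of 0.391 (0.231 to 0.647), past the rule in 7 of 18 alternatives. In lists of 12 to 18 genes, counts this low say nothing particular to the lists.

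Effector genes past the size rule are likewise given beside the 3.97% of all genes, from which lists of this length cannot be set apart. The 6 genes of the NADPH oxidase, which makes superoxide, summed to 2541 CPM in floxed and 2563 CPM in control neutrophils, with 0 past the rule and a median log2 ratio of -0.13. Cyba stood at 1142 and 1024 CPM and Cybb at 194 and 147 CPM. Of the 16 cytokine and chemokine genes 0 were past the rule, with a median of 0.14 over 6 genes. Cxcl2 had 1250 UMIs in 127 floxed cells (1883 CPM) and 524 UMIs in 74 control cells (1167 CPM), a ratio of 1.61 (1.46 to 1.79), while Il1b stood at 861 and 1100 CPM, a ratio of 0.783 (0.693 to 0.885). Within granule-low cells the Cxcl2 ratio was 1.73 (1.56 to 1.93), past the rule. Of 14 genes of the NF-kB response 1 was higher, Ier3, an immediate early gene, at 297 and 136 CPM (2.18, 1.63 to 2.96; past the rule in 15 of 18 alternatives), with a list median of -0.19. The 7 measured genes of gelatinase granules and secretory vesicles had 0 past the rule and a median of -0.20, and Slpi, a protease inhibitor, stood at 676 and 1013 CPM. Of 12 granulopoiesis factors 0 were past the rule (median 0.03), with Spi1, the myeloid factor PU.1, at 364.5 and 485.5 CPM and Cebpb at 375 and 294 CPM.

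S100a6 and the stefins were lower in floxed neutrophils. S100a6, a calcium-binding relative of the calprotectin genes, stood at 1477 CPM (981 UMIs in 141 cells) in the floxed and 2528 CPM (1135 UMIs in 125 cells) in the control library, a ratio of 0.585 (0.536 to 0.637). In macrophages its ratio was 1.02 (0.888 to 1.16), and the neutrophil ratio was 0.574 times that (0.489 to 0.675). S100a6 was past the size rule in 11 of 18 alternatives. Its relative S100a11 stood at 2105 and 2512 CPM. The 4 Stfa genes summed had a ratio of 0.638 (0.624 to 0.653). In granule-low cells the ratios were 0.671 for Stfa1, 0.719 for Stfa2, 0.682 for Stfa2l1 and 0.583 for Stfa3, none past the rule. In the azurophil range, with 2 control cells, Stfa1 (2.13) and Stfa2l1 (9.06) were higher in floxed cells. Stfa1 stood at 26014 floxed and 42752 control CPM in granule-high cells, against 9787 and 14595 CPM in granule-low cells. S100a8 and S100a9, on which the cells were chosen, had ratios of 0.745 and 0.857, given as a description only. Hcst, an adaptor of activating receptors, stood at 67.8 CPM in 37 floxed cells and 165 CPM in 54 control cells, a ratio of 0.411 (0.277 to 0.604), past the rule in 15 of 18 alternatives.

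The median interferon-response gene was lower in the floxed library, while the summed level of the list was not. Of its 20 genes 14 were at 25 CPM or more, of which 2 had ratios above 1 and 12 below, with a median log2 ratio of -1.61 against 0.05 over all genes. The list summed to 3494 CPM in floxed and 3405 CPM in control neutrophils, and to 3938 and 3654 CPM in granule-low cells, so sum and median differ in direction. Ifitm2 and Ifitm1, whose levels are given above, hold much of that sum. By the size rule 1 was higher (Ifitm1) and 1 lower, against 2.31% and 1.66% of all genes tested in neutrophils. Most other members had few UMIs. Isg15, a ubiquitin-like protein, had 4 UMIs in 3 floxed cells and 31 UMIs in 21 control cells. Rsad2, the antiviral enzyme viperin, had 9 UMIs in 6 floxed and 39 in 22 control cells, and Bst2 (tetherin) had 8 in 8 and 31 in 23. The lower gene was Ifi27l2a, at 99.4 CPM in 20 floxed cells and 325 CPM in 45 control cells, a ratio of 0.306 (0.225 to 0.412). The difference was not restricted to neutrophils: in macrophages the list's median was -2.08, with 0 genes higher and 8 lower by the size rule against 4.97% and 4.08% of all genes tested there. Over all other kept barcodes 0 were higher and 3 lower, against 1.91% and 1.97%, and Ifi27l2a had a ratio of 0.246 (0.236 to 0.256) over all other kept barcodes. Ifitm1 ran the other way from most of the list in neutrophils.

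**Figure D5:**
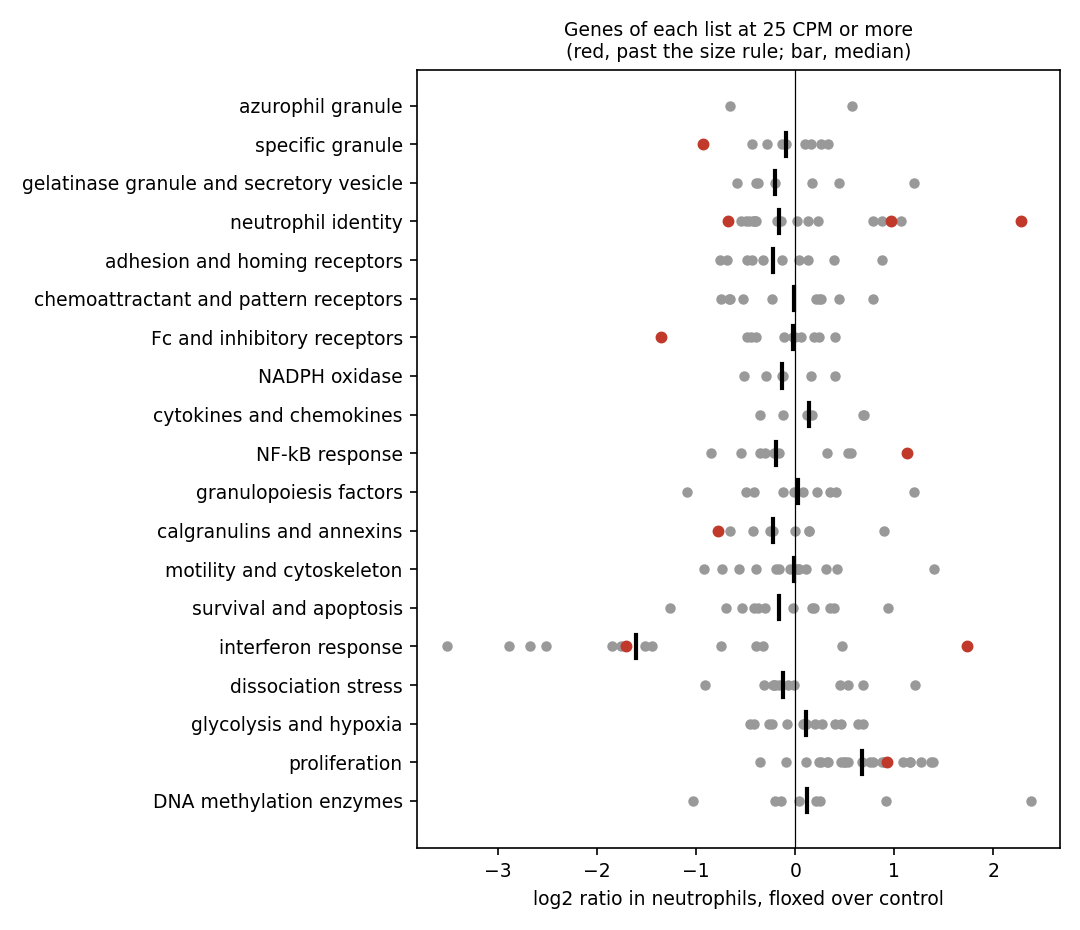
Log2 ratio of the floxed over the control library in neutrophils (x axis) for each gene at 25 CPM or more with a UMI in both libraries, by gene list (y axis). Red points are past the size rule and bars are list medians where at least 3 genes were measured. The interferon list has a median of -1.61 and the proliferation list 0.67, while the other 16 medians lie between -0.23 and 0.14. The list of calgranulins and annexins (median -0.22) includes S100a8 and S100a9, which chose the cells, so it is a description only.

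Proliferation genes had a median log2 ratio of 0.67, with 21 of 23 measured genes above 0. By the size rule 1 of the 24 genes was higher, against 2.31% of all genes tested. That was Stmn1 (stathmin, a microtubule regulator), at 477 and 252 CPM, a ratio of 1.90 (1.53 to 2.37), past the rule in 10 of 18 alternatives. The median cell of the azurophil range had 86.5 floxed and 95.5 control UMIs of the list, against 6 and 8 in granule-low cells. These counts are not scaled for depth, which was lower in granule-low cells. Scaled, the list stood at 12401 and 9902 CPM in the azurophil range. Among granule-low cells the list stood at 3817 CPM in the floxed and 3407 CPM in the control library. Single deep cells outside the azurophil range also held many list UMIs. A floxed granule-high cell of 27506 UMIs had 286, and a floxed granule-low cell of 27614 UMIs had 202. The highest control count was 103, in an azurophil-range cell of 8878 UMIs. Over the alternatives the median lay between 0.09 and 0.79. Mki67, a marker of cycling cells, was found in 5.71% of floxed and 8.53% of control neutrophils after thinning, 15.4% and 17.1% unthinned, and in 7.06% and 11.5% of thinned progenitors, which also divide. F13a1 and Ms4a6c, which are monocyte markers, were also higher in floxed neutrophils, at 166 and 60.1 CPM (2.76, 1.80 to 4.37) and 175 and 69.0 CPM (2.53, 1.69 to 3.89). Each was found in 22 floxed cells, of which 9 were in the azurophil range, and they were past the rule in 16 and 14 of 18 alternatives.

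Several of the largest ratios came from few cells or were also found in macrophages or over all other kept barcodes. Of the 15 highest and 15 lowest named genes, 5 and 5 had over 25% of their UMIs in 1 cell of the library with the higher level. Slc12a1, the salt transporter of the thick ascending limb, had a ratio of 23.2 with 84.7% of its floxed UMIs in 1 cell, and Defb1, a defensin of epithelia, a ratio of 0.113 with 83.3% of its control UMIs in 1 cell. The endothelial genes Egfl7 and Tm4sf1 had ratios of 0.156 and 0.0882 in neutrophils and 0.351 and 0.284 in macrophages. Tpm3-rs7, a tropomyosin-related copy whose reads may be shared with its parent gene, had a ratio of 21.4 in neutrophils and 25.9 over all other kept barcodes. Snhg9, a non-coding RNA gene, had a ratio of 0.177 (0.0955 to 0.312) in neutrophils and 0.275 over all other kept barcodes.

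Haemoglobin RNA was higher in the floxed library in each set of cells measured. The 4 adult globin genes summed to 25704 CPM in floxed and 2641 CPM in control neutrophils, a ratio of 9.73 (9.18 to 10.3). For Hbb-bs alone the ratio was 10.4 in neutrophils, 4.97 in macrophages and 3.40 over all other kept barcodes. At least 100 UMIs of erythroid genes were found in 19 floxed and 2 control neutrophils, and the median neutrophil had 5 and 2. In nephron progenitors the globin gene Hbb-bs was found in 40.1% of floxed and 13.1% of control barcodes after thinning, against 72.6% and 25.6% of neutrophils (96.6% and 57.4% unthinned). Without the cells holding 100 erythroid UMIs, Wfdc17, Lrg1 and Ifitm1 were still past the size rule. Lyz2 (lysozyme) stood at 3020 and 1637 CPM in neutrophils, a ratio of 1.84 (1.69 to 2.01), and had a ratio of 2.77 in macrophages.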

How the data were processed

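The authors deposited raw counts of UMIs, 1 matrix for each library, over 31053 genes. Reads were processed with Cell Ranger 6.0.2 on mm10 per the submitters' processing notes, and the matrices were written by version 6.0.1 per the file headers. The 2 bisulfite samples were not analysed here. For the gene annotation, the release is not given in the sources used here.

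Members and gene lists were chosen with earlier results of these data known. UMIs were summed over the members of each library and divided by their total (CPM), with exact Poisson intervals, exact conditional binomial intervals for ratios, conditional odds ratios for ratios of ratios, and Clopper-Pearson intervals for shares. The size rule is given with the results. Cells are not replicates, so no p-value was computed. With 3-fold changes simulated in 200 genes of the neutrophil table, the rule found 100 of 100 higher and 99 of 100 lower genes and called 0 unchanged ones. The simulated counts were Poisson draws on the summed UMIs, and the changed genes were at 200 CPM or more. Such draws hold no variation between cells, so they cannot show how the rule treats genes with UMIs concentrated in few cells. Doublets were not removed. As an alternative the 8% of barcodes with the highest scrublet score (scanpy 1.11.5) were dropped, which removed 26 floxed and 11 control neutrophils.

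Named genes were the list members a result turns on, the 15 highest and 15 lowest ratios past the rule, without the genes of the selection rule, mitochondrial, ribosomal protein, haemoglobin, sex-linked and predicted genes and those at under 0.5 of their level in other barcodes, and the 20 genes with the highest ratio over other barcodes. Ly6c2, Hbb-bs, Lyz2, Wfdc21 and the other genes outside these sets were named after their values were seen. RefSeq rows were found for 400 of 405 listed or named genes. Intervals came from scipy 1.17.1, tables from pandas 2.3.3 with numpy 2.4.6, and plots from matplotlib 3.10.9 under Python 3.11.15.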

Additional observations from a re-analysis of the deposited data

Results flagged for a closer look

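Spp1, which encodes the secreted glycoprotein osteopontin, differed in opposite directions in 2 sets of cells. Its floxed over control ratio was 0.432 in neutrophils and 2.32 in macrophages. The difference between the 2 cell types was not tested across animals. In neutrophils 1 cell held 46.8% of the floxed UMIs of Spp1 and 1 cell held 76.3% of the control UMIs.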

How the results depend on the processing

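Each genotype had 1 library, so no replicate could be left out. No paired analysis was possible because the groups share 1 replicate number only. The neutrophil share moved to 0.940% of floxed barcodes with a minimum of 20 UMIs of S100a8 and S100a9, to 0.661% of floxed and 0.432% of control barcodes with 2000 UMIs and 750 genes, to 0.805% and 0.429% with no Col3a1 UMI allowed, and to 0.812% and 0.368% without members holding 5 UMIs of other lineages. Without those members 8 genes were lower, of which 6 were among the 23. A minimum level of 25 CPM gave 70 higher and 70 lower genes, and no minimum gave 93 and 97. Reversed ratios were Spp1 at 1.72 with a mitochondrial share under 10%, Calb1 at 0.615 without the highest doublet scores, and, without members holding 5 UMIs of other lineages, Calb1 at 0.868, Egfl7 at 1.05 and Igfbp5 at 1.14. The cause was not tested. In all, 815 values kept their direction and size class, 151 moved and 5 reversed. Restriction to granule-low cells and removal of cells with 100 erythroid UMIs were added after the data were seen. The totals of 664009 and 449033 UMIs limit what can be said of genes under 25 CPM.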
